A study of Mus musculus with 16 samples.

Results

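The 10 genes described here encode the inducible proteasome subunits and the machinery that trims peptides, carries them into the endoplasmic reticulum and loads them onto MHC class I: Tap1, Tap2, Tapbp, Tapbpl, Erap1, Psmb8, Psmb9, Psmb10, Psme1 and Psme2. They were found by symbol, once each, among the 55414 gene rows of one deposited table and the 56980 of the other. RNA-seq was done on 16 libraries of KPC1199, a mouse pancreatic ductal adenocarcinoma line from a tumor of a Pdx-cre mouse model with a mutant Trp53. All groups carried a CRISPR-Cas9 lentivirus, with either a control guide (sgCtrL, labelled WT) or a guide against Sin3B (Sin3Bsg1, labelled Sin3B Knockout), and Sin3B is a scaffold of a histone deacetylase corepressor complex. One experiment had 2 sgCtrL and 2 Sin3Bsg1 libraries of untreated cells. A second experiment had 3 libraries each of sgCtrL and Sin3Bsg1 cells without IFNγ, and 3 of each with 10 ng/mL IFNγ for 24 h. Both genotypes were stable lines made with puromycin selection, with 1 guide for each genotype in these libraries. Whether they were pools or clones is not given in the sources used here, and the labels do not say whether the libraries of a group came from separate cultures. The p-values therefore measure the spread between libraries, which may be technical.

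MHC class I molecules show peptides from inside the cell to CD8+ T cells. The proteasome cuts proteins into these peptides, and under IFNγ cells replace the catalytic subunits Psmb5, Psmb6 and Psmb7 with Psmb8, Psmb9 and Psmb10, which gives the immunoproteasome. Psme1 and Psme2 are the alpha and beta subunits of PA28, a cap that opens the proteasome and favours release of peptides. Tap1 and Tap2 pair into the transporter that pumps peptides into the endoplasmic reticulum. Tapbp (tapasin) bridges the transporter to empty class I molecules, Tapbpl (TAPBPR) edits their peptides away from the transporter, and Erap1 trims peptides to length.

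The machinery is clustered in the genome, with 5 of the 10 genes on chromosome 17 within the MHC. In GENCODE on GRCm39, Psmb9 (34400960-34406738, minus strand), Tap1 (34405996-34416199), Psmb8 (34416690-34420428) and Tap2 (34422501-34435829) follow each other over 34870 bases, with no other protein-coding gene between them. Tapbp stands 252692 bases away (34134873-34148267). Psme1 (chromosome 14, 55815190-55822034) and Psme2 (55824895-55829173) are 2860 bases apart on opposite strands. The others stand alone: Psmb10 on chromosome 8 (106662362-106665077), Tapbpl on chromosome 6 (125200373-125208994) and Erap1 on chromosome 13 (74787687-74841320). Annotated transcripts of Psmb9 and Tap1 overlap by 743 exonic bases on opposite strands, as do those of Psme2 and Rnf31 (731 bases), Erap1 and Cast (835) and Psme1 and Emc9 (2192). Tapbp shares 923 exonic bases with Zbtb22 on its own strand. The annotation behind the counts, and whether counting used the strand, are not given in the sources used here. The length deposited with the counts for Psme1 was 1112 bases, shorter than its overlap with Emc9. These stretches may thus differ from those counted, and reads in any that were counted cannot be assigned to one gene.

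Promoter windows (250 bases before to 50 after the start, RefSeq, GRCm38.p6) were matched for 8 of the 10 genes; Tap2 and Tapbpl had none. The starts of Psmb9 and Tap1 lie 225 bases apart and face away from each other. Letters of interferon-linked motifs were searched on both strands: GAS, the IFNγ-activated site, as TTCNNNGAA, and ISRE, the interferon-stimulated response element, as GAAA and GAAA with any letters at the 2 places between. A GAS match stood in the Psmb8 window alone, while 9.55% of 27025 genes had one. An ISRE match stood in the Erap1 and Psme1 windows, against 3.99% of genes. A GC box (GGGCGG) stood in the windows of 6 of the 8 genes, against 38.2% of genes. The windows of Psmb9 and Tap1 overlap, and their GC box is the same run of letters, counted for both. The matches, shown in capitals within 30 bases because they are the interferon-linked letters found in these windows, are on the plus strand as follows.
Psmb8, GAS at -97 to -89 from the start (GRCm38.p6, chr17:34198087-34198116): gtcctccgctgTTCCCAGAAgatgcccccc
Erap1, ISRE at -4 to 6 (chr13:74639839-74639868): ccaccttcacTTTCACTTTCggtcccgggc
Psme1, ISRE at 10 to 19 (chr14:55578493-55578522): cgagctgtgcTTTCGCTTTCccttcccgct
The ISRE letters are read here from the opposite strand, and no match overlapped another motif. A match is a run of letters, not a bound site. No match says only that these letters are not in the window.

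Libraries held 29683181 to 32311721 estimated counts in the untreated experiment and 18128055 to 27056903 in the IFNγ experiment. Sin3b itself was lower with its guide in each comparison, at 33.6 to 39.4 CPM (counts scaled to library size) against 80.4 to 95.6 CPM in the control libraries of both experiments. The log2 differences were -1.28 untreated, -1.24 without IFNγ and -1.22 with IFNγ. Of the libraries, sgCtrL with IFNγ replicate 1 stood apart: the mean chi-square per gene was 22.3 and 18.6 against its fellow replicates, which differed from each other by 4.05. To a lesser degree, Sin3Bsg1 with IFNγ replicate 1 also differed from its fellows, by 6.73 and 9.32, against 3.46 between them. Ductal epithelial markers were high in every group, at 3253 to 6493 CPM summed over 9 genes. They were called higher in Sin3Bsg1 for 8, 5 and 7 of the 8 tested (untreated, without and with IFNγ). Over all genes tested, 15.1%, 7.89% and 8.62% were called higher in these comparisons. Fibroblast markers summed to 534 CPM in untreated sgCtrL and to 216 to 221 CPM in untreated Sin3Bsg1. In the IFNγ experiment they summed to 1381 to 1432 CPM (sgCtrL) and 1066 to 1104 CPM (Sin3Bsg1) without IFNγ. With IFNγ they summed to 836 to 941 and 724 to 754 CPM. By gene they were split: both without and with IFNγ, 2 of the 5 tested were called higher in Sin3Bsg1 and 2 lower. In untreated cells 4 of the 7 tested were called lower and none higher. Over all genes tested, 16%, 9.33% and 7.90% were called lower (untreated, without and with IFNγ). The 15 leukocyte markers summed to 9.62 to 24.1 CPM, with Cd3e, Adgre1 and Itgax at 0 in every group, and the 5 endothelial markers to 0.0859 to 0.918 CPM. The part of these markers in the differences between genotypes was not tested.

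Without IFNγ the machinery was unevenly expressed. Compared per gene length, as TPM (transcripts scaled to a common total, from the counts and deposited lengths), the PA28 subunits and tapasin were the most abundant in each of the 4 groups without IFNγ. In sgCtrL without IFNγ, Psme1 was at 136 ± 1.38 TPM (SD, n = 3), Tapbp at 116 ± 3.71 and Psme2 at 96.9 ± 3.45. Psmb10 followed at 27.7 ± 1.21 TPM, then Erap1 (17.3 ± 0.489), Tapbpl (11.9 ± 0.274), Tap2 (5.69 ± 0.587), Psmb8 (2.71 ± 0.824), Tap1 (1.59 ± 0.161) and Psmb9 (0.257 ± 0.146). No neighbours in this order overlapped between libraries. In untreated sgCtrL cells the order was the same except that Tapbpl (13.7 TPM) stood above Erap1 (10.4 TPM), again with no overlap of neighbours. In Sin3Bsg1 the ranges of Tapbp and Psme2, and of Tap1 and Psmb8, overlapped in both experiments.

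**Figure D1:**
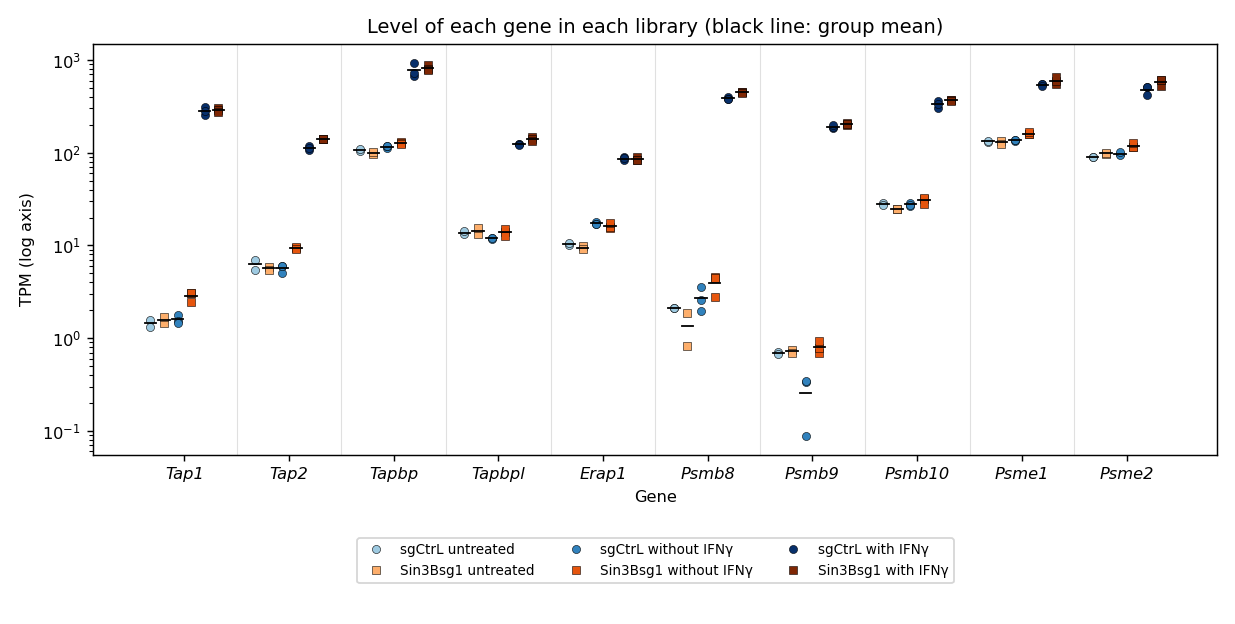
Level of each of the 10 genes in TPM, on a log axis, in each of the 16 libraries; points are libraries, colours are the 6 groups and black lines are group means. The libraries with IFNγ sit above all others for each gene, and the gap is widest for Psmb9, Tap1 and Psmb8, which start lowest.

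IFNγ raised all 10 genes in both genotypes, with no overlap between libraries (20.8% of all genes were higher without overlap in sgCtrL and 24.3% in Sin3Bsg1). By edgeR's quasi-likelihood test with Benjamini-Hochberg adjustment, 10 of 10 were called higher in sgCtrL, where 15.7% of 14913 genes tested were. In Sin3Bsg1, 10 of 10 were called higher against a background of 16.1%. Each rose at least 2-fold, as did 3.21% of all genes in sgCtrL and 3.25% in Sin3Bsg1. The median log2 fold change of the 10 genes was 3.55 in either genotype, beside a median of -0.0006 and 0.0052 over all genes tested.

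Of the transporter, Tap1 rose from 2.37, 2.09 and 1.98 CPM to 435, 372 and 397 CPM in sgCtrL. In Sin3Bsg1 it rose from 3.31, 4.13 and 4.04 CPM to 412, 415 and 404 CPM. Groups with and without IFNγ were far apart, and the genotypes overlapped with IFNγ but not without it. The log2 fold change was 7.55 ± 0.0938 (SE) in sgCtrL (adjusted p = 2.85e-18) and 6.75 ± 0.0854 in Sin3Bsg1 (adjusted p = 3.78e-18). Its partner Tap2 rose from 9.44, 7.97 and 9.41 CPM to 194, 182 and 185 CPM in sgCtrL, and from 14.5, 14.8 and 14 CPM to 222, 233 and 238 CPM in Sin3Bsg1. For Tap2 the genotypes did not overlap on either side of the treatment. The log2 fold changes were 4.39 ± 0.0657 and 4.0 ± 0.0610. Per length, there was 0.281 ± 0.0318 Tap1 transcript for each Tap2 transcript in sgCtrL without IFNγ (SD, n = 3) and 2.5 ± 0.117 with it, so the scarcer of the partners changed from Tap1 to Tap2. In Sin3Bsg1 the ratio went from 0.309 ± 0.0381 to 2.07 ± 0.0899.

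Of the loading factors, Tapbp started high and rose less. It went from 147, 159 and 154 CPM to 1298, 961 and 1001 CPM in sgCtrL, where the highest of the IFNγ values belonged to the library that stood apart. In Sin3Bsg1 it went from 172, 167 and 161 CPM to 1172, 1125 and 1122 CPM. The log2 fold changes were 2.83 ± 0.0890 and 2.77 ± 0.0885. Tapbpl rose from 12.8, 12.6 and 13 CPM to 140, 143 and 135 CPM in sgCtrL, and from 14.9, 16 and 13.5 CPM to 159, 161 and 156 CPM in Sin3Bsg1. Its log2 fold changes, 3.44 ± 0.0599 and 3.43 ± 0.0579, exceeded those of Tapbp. Accordingly Tapbp outnumbered Tapbpl per length by 9.72 ± 0.484 times in sgCtrL without IFNγ and by 6.34 ± 1.08 times with it. The trimming enzyme Erap1 rose from 45.6, 44.0 and 44.2 CPM to 240.5, 229 and 234 CPM in sgCtrL and from 39.7, 40.5 and 43.6 CPM to 236, 228 and 233 CPM in Sin3Bsg1. With IFNγ the genotypes were interleaved for Erap1, and its log2 fold changes were 2.40 ± 0.0482 and 2.49 ± 0.0480.

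The catalytic subunits held both the largest change and one of the moderate ones. Psmb9 had 1, 5 and 4 counts in the sgCtrL libraries without IFNγ and 2412, 3301 and 2823 with it. In Sin3Bsg1 it had 11, 11 and 13 counts without and 2980, 3410 and 3164 with IFNγ. Summed and scaled to library size this is a 759-fold rise in sgCtrL (95% interval 413 to 1584, exact, counting error only) and a 275-fold rise in Sin3Bsg1 (198 to 395). The fitted log2 values of 9.52 and 8.09 rest on those few starting counts. Psmb8 rose from 2.64, 1.96 and 1.44 CPM to 307, 300.2 and 297 CPM in sgCtrL (log2 7.22 ± 0.125), and from 2.06, 3.35 and 3.23 CPM to 341, 353.5 and 355 CPM in Sin3Bsg1 (6.94 ± 0.116). Psmb10 rose from 15.8, 17.6 and 16.4 CPM to 227, 197 and 209 CPM in sgCtrL (3.66 ± 0.0709), and from 19, 19.1 and 16.5 CPM to 227, 233 and 235 CPM in Sin3Bsg1 (3.67 ± 0.0693). Without IFNγ Psmb10 was thus the one inducible catalytic subunit above 10 TPM, and with it the smallest fold change among the 3 was its own.

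The PA28 subunits started among the highest per length, and their fold changes were among the smaller ones. Psme1 rose from 67.8, 70.4 and 69.5 CPM to 296, 296 and 281 CPM in sgCtrL (log2 2.07 ± 0.0685), and from 79.9, 79.0 and 82.5 CPM to 284, 323 and 358 CPM in Sin3Bsg1 (2.0 ± 0.0676). Psme2 rose from 42.1, 41.6 and 44.0 CPM to 192, 239 and 232 CPM in sgCtrL (2.38 ± 0.0916), and from 49.7, 49.7 and 55.3 CPM to 234, 284 and 288 CPM in Sin3Bsg1 (2.38 ± 0.0899). The low value of 192 CPM was again from sgCtrL with IFNγ replicate 1. In Sin3Bsg1 with IFNγ, replicate 1 likewise held the lowest value of Psme2 (234 CPM), and also that of Psme1 (284 CPM). Per length the subunits were close to balance with IFNγ, with 1.15 ± 0.156 Psme1 for each Psme2 in sgCtrL and 1.03 ± 0.0469 in Sin3Bsg1, against 1.41 ± 0.0503 and 1.35 ± 0.0536 without it. Psme2 has a near-identical copy, Psme2b, with 8 to 95 counts in these libraries, and reads may have been split between them.

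**Figure D2:**
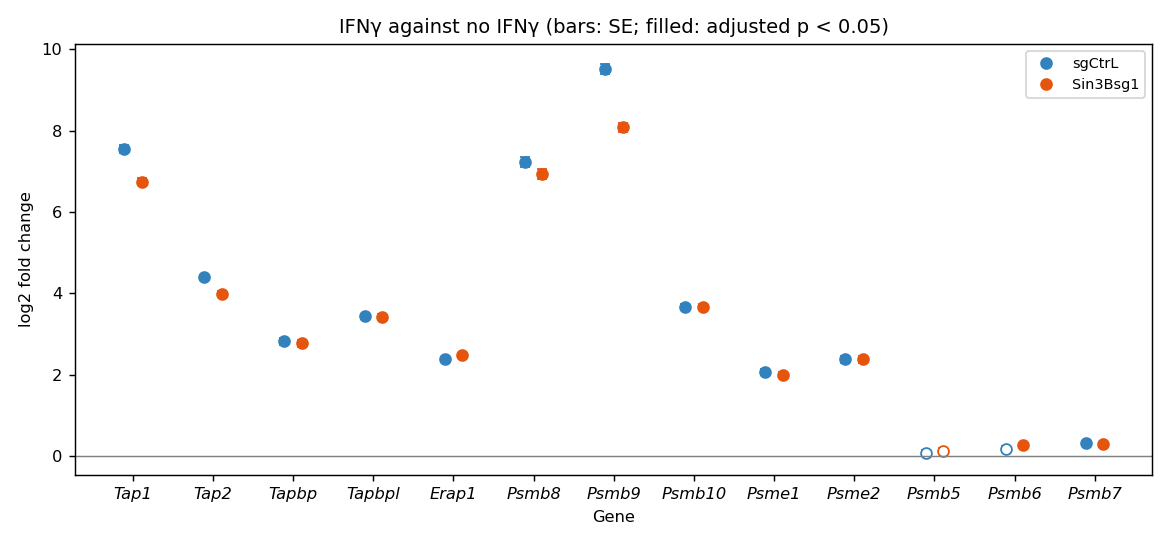
Log2 fold change with IFNγ against without it, by gene, in sgCtrL and Sin3Bsg1; bars are standard errors and filled points passed an adjusted p of 0.05. The 10 genes span 2.0 to 9.52 while Psmb5, Psmb6 and Psmb7, the constitutive counterparts of Psmb8, Psmb9 and Psmb10, stay between 0.09 and 0.33.

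The order of the genes was rearranged by IFNγ. With IFNγ in sgCtrL, Tapbp led at 779 ± 137 TPM, followed by Psme1 (543 ± 13), Psme2 (477 ± 51.4), Psmb8 (384 ± 8.84), Psmb10 (334 ± 27.7), Tap1 (282 ± 25.3), Psmb9 (190.3 ± 6.26), Tapbpl (123 ± 2.22), Tap2 (113 ± 4.86) and Erap1 (86.3 ± 3.09). Only Psmb10 and Tap1 overlapped among neighbours. Psmb8 passed Psmb10, and Tap1 passed Tap2, Tapbpl and Erap1. Together the 10 genes summed to 416 ± 4.93 TPM in sgCtrL without IFNγ and 3312 ± 160 with it. In Sin3Bsg1 they summed to 485 ± 7.21 and 3672 ± 19.4.

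Set beside their constitutive counterparts, the inducible catalytic subunits went from a trace to about equal. Psmb5, Psmb6 and Psmb7 changed by log2 0.09, 0.18 and 0.33 with IFNγ in sgCtrL, of which Psmb7 alone was called (adjusted p = 0.000395). In Sin3Bsg1 they changed by 0.13, 0.26 and 0.29, and Psmb6 (adjusted p = 0.0109) and Psmb7 (adjusted p = 0.00108) were called. The summed TPM of Psmb8, Psmb9 and Psmb10 was 3.67% of all 6 subunits in untreated sgCtrL, 3.18% in untreated Sin3Bsg1, 3.52 ± 0.0701% in sgCtrL without IFNγ and 4.33 ± 0.128% in Sin3Bsg1 without IFNγ. With IFNγ it was 49.6 ± 1.22% in sgCtrL and 54.1 ± 1.75% in Sin3Bsg1. By library these were 48.3 to 50.7% and 52.3 to 55.8%, with no overlap of the genotypes. In untreated cells they did not overlap either, but Sin3Bsg1 was the lower, at 3.07 to 3.29% against 3.58 to 3.76%. With IFNγ the summed inducible TPM was 909 ± 34.9 in sgCtrL and 1019 ± 9.6 in Sin3Bsg1. The constitutive sum was 924 ± 9.54 and 867 ± 53.3. The pairs differed: with IFNγ in sgCtrL, Psmb8 was 68.1 ± 1.18% of Psmb8 plus Psmb5, Psmb10 50.6 ± 1.53% of Psmb10 plus Psmb7, and Psmb9 31.3 ± 0.895% of Psmb9 plus Psmb6. In Sin3Bsg1 the shares were 70.7 ± 1.68%, 56.3 ± 1.83% and 34.0 ± 1.24%. These are shares of transcripts and carry no test.

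**Figure D3:**
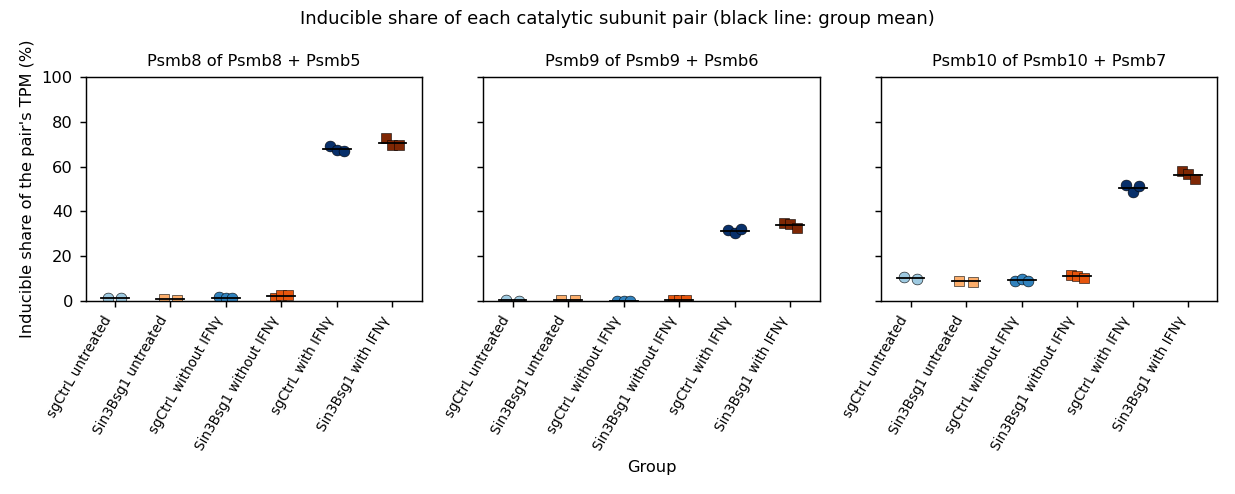
Share of each catalytic pair's TPM that came from its inducible member, in percent, by library; points are libraries and black lines are group means. With IFNγ the share was highest for Psmb8 (68.1% and 70.7%), intermediate for Psmb10 (50.6% and 56.3%) and lowest for Psmb9 (31.3% and 34.0%), while without IFNγ no library passed 11.4% in any pair.

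The effect of the Sin3B guide was small beside that of IFNγ. The genes called differed between the experiments, and this difference was not tested. Without IFNγ in the IFNγ experiment, 5 of the 10 genes were called higher in Sin3Bsg1, where 7.89% of all genes tested were, and none was called lower (9.33% of all genes). Log2 differences were 0.83 ± 0.135 for Tap1 (adjusted p = 0.000396), 0.70 ± 0.0735 for Tap2 (5.63e-06), 1.53 ± 0.373 for Psmb9 (0.0101), 0.22 ± 0.0681 for Psme1 (0.0392) and 0.21 ± 0.0669 for Tapbpl (0.0416). The transporter genes thus moved together: each Sin3Bsg1 library lay above each sgCtrL library for both, as the values given above show. For Psmb9 the summed counts were 35 against 10, a ratio of 2.95 with a counting interval of 1.43 to 6.69. Psme2 (0.28, adjusted p = 0.0502) and Psmb8 (0.50, adjusted p = 0.0904) missed the threshold, as did Psmb10 (0.13), Tapbp (0.12) and Erap1 (-0.11). DESeq2 and the fit with no filter on low counts each called 6 genes, with Psme2 (adjusted p = 0.0143 and 0.000285) and Psmb8 (0.0214 and 0.0246) but without Tapbpl (0.0545 and 0.0813). Libraries of the genotypes did not overlap for 7 genes higher in Sin3Bsg1 (18.3% of all genes) and 1 lower, Erap1 (20.9%). The calls of Tap1 and Tap2 held in each alternative fit. Psmb9 missed the threshold without sgCtrL without IFNγ replicate 1, at 1.17, and was too low to be tested in a fit of these 6 libraries alone, while Psme1 missed it without any one of these 6 libraries (0.20 to 0.23) and Tapbpl without any one but Sin3Bsg1 replicate 3 (0.15 to 0.22). The median over the 10 genes was 0.25, against -0.009 over all genes.

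In the untreated experiment none of these 5 genes was called. Of the 10, Psme2 was called higher (0.15 ± 0.0495, adjusted p = 0.0349; 15.1% of 14589 genes tested were higher), at 45.9 and 46.7 CPM against 42.0 and 41.7 CPM. Tapbp was called lower (-0.11 ± 0.0357, adjusted p = 0.0296; 16% of all genes), at 137 and 142 CPM against 145 and 156 CPM. Psme2 passed the threshold in no fit that left out a library (0.13 to 0.16), and Tapbp missed it without sgCtrL replicate 2 (-0.06) or Sin3Bsg1 replicate 1 (-0.08). Without overlap of the genotypes, 1 of the 10 was higher in Sin3Bsg1 (31.9% of all genes) and 4 were lower (31.4%). Tap1 had 2.12 and 2.43 CPM in Sin3Bsg1 against 2.25 and 1.91 CPM in sgCtrL, a log2 difference of 0.13 ± 0.243. Tap2 had 9.93 and 9.04 against 11.7 and 9.22 CPM (-0.14 ± 0.125). For Psmb9 the summed counts were 30 against 27, a ratio of 1.04 with a counting interval of 0.60 to 1.82. The genotypes overlapped for all 3. Psmb8 was at 1.5 and 0.648 CPM in Sin3Bsg1 against 1.68 and 1.67 CPM in sgCtrL (-0.64 ± 0.362, adjusted p = 0.212), and the Sin3Bsg1 libraries differed from each other by more than the genotypes did. Without the higher of them, replicate 1, the Psmb8 difference was -1.36 and passed the threshold. The median over the 10 genes was -0.08, against 0.0024 over all genes. The experiments were deposited as separate tables, and the difference between them was not tested.

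**Figure D4:**
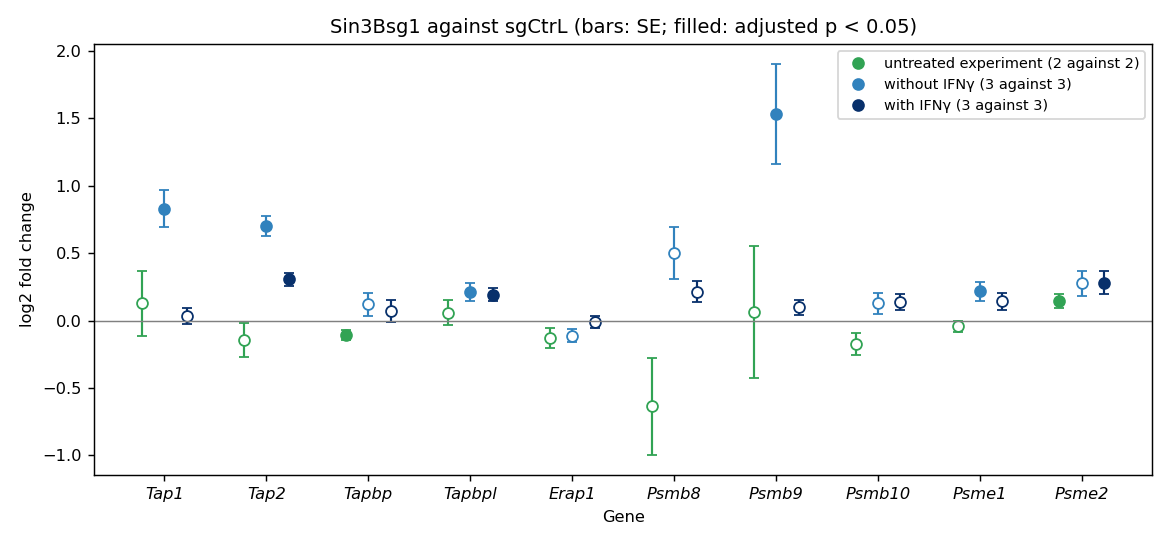
Log2 fold change of Sin3Bsg1 against sgCtrL for each gene in untreated cells (2 against 2 libraries), without IFNγ and with IFNγ (3 against 3 each); bars are standard errors and filled points passed an adjusted p of 0.05. Tap1, Tap2 and Psmb9 stand at 0.83, 0.70 and 1.53 without IFNγ, at 0.13, -0.14 and 0.06 in untreated cells, and at 0.03, 0.31 and 0.10 with IFNγ.

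With IFNγ, 3 of the 10 genes were called higher in Sin3Bsg1, where 8.62% of all genes tested were, and none lower (7.90%). These were Tap2 (0.31 ± 0.0504, adjusted p = 0.000491), Tapbpl (0.19 ± 0.0488, 0.0126) and Psme2 (0.28 ± 0.0835, 0.0305), by edgeR as above. Tap2 and Tapbpl did not overlap between genotypes, and Psme2 did. Psmb8 (0.22 ± 0.0773, adjusted p = 0.0714) and Psmb10 (0.14 ± 0.0587, adjusted p = 0.133) missed the threshold, although each Sin3Bsg1 library lay above each sgCtrL library, for Psmb10 by 227.4 against 227.3 CPM. Psmb8 was called by DESeq2 (adjusted p = 0.000202) and with no filter on low counts (0.00345), for 4 calls in each. In all, 4 genes were higher without overlap (15.4% of all genes) and 0 lower (14.9%). Tap1 stood at 0.03 ± 0.0586, Tapbp at 0.07 ± 0.0822, Psmb9 at 0.10 ± 0.0558, Psme1 at 0.14 ± 0.0641 and Erap1 at -0.01 ± 0.0440. Without sgCtrL with IFNγ replicate 1, 6 genes were called, with Psmb8 (0.24), Tapbp (0.23) and Psmb10 (0.21) added. Without Sin3Bsg1 with IFNγ replicate 2, Tap2 alone was called, with Tapbpl at 0.18 and Psme2 at 0.24. Tapbpl also missed the threshold without sgCtrL replicate 3 (0.17), and Psme2 without Sin3Bsg1 replicate 3 (0.23). Of the constitutive counterparts, Psmb7 was lower in Sin3Bsg1 (-0.19 ± 0.0564, adjusted p = 0.0290).

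The fold rise with IFNγ was not shown to differ between the genotypes for any of the 10 genes. In the edgeR interaction test 0 of 10 passed the threshold, where 17 of 14913 genes (0.114%) did. At an unadjusted p under 0.05 there were 3 of the 10, where 810 of 14913 genes passed in either direction. All 3 had a smaller rise in Sin3Bsg1: Tap1 (-0.80 ± 0.147, adjusted p = 0.0556), Tap2 (-0.40 ± 0.0893, adjusted p = 0.203) and Psmb9 (-1.43 ± 0.379, adjusted p = 0.419). DESeq2 called 2 of these, Tap1 (-0.81) and Tap2 (-0.41). The same 2 were called without a filter on low counts, and Tap1 with at least 10 counts in every library (-0.82) and without either of sgCtrL with IFNγ replicates 1 (-0.73) and 2 (-0.87). For the other 7 genes the interaction ran from -0.29 (Psmb8) to 0.10 (Erap1). The interaction and the comparison without IFNγ share their libraries, so they are not separate evidence.

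The rest of the proteasome moved a little in the same direction with IFNγ. Over all genes tested, 15.7% were called higher with IFNγ in sgCtrL and 16.1% in Sin3Bsg1. Of the 14 constitutive 20S core genes, 10 were called higher in sgCtrL (median 0.31) and 13 in Sin3Bsg1 (0.35). The largest were Psma5 (0.66 and 0.88), Psma4 (0.51 and 0.65) and Psmb4 (0.43 and 0.52), subunits of the outer and inner rings. Of the 18 genes of the 19S particle, which unfolds substrates, 17 and 18 were called higher (medians 0.25 and 0.29), led by Psmd7 at 0.35 and 0.40. Among 8 assembly factors and other activators, 4 and 5 were called higher. Psmg4 (0.98 and 1.19) and Pomp (0.64 and 0.86), which help to build the core, rose most. Of 5 chaperones that fold class I, Pdia3 (0.27 and 0.28), Hsp90b1 (0.19 and 0.23) and Calr (0.18 and 0.23) were higher in both genotypes and Hspa5 (0.15) in Sin3Bsg1. Of 7 other peptidases, only 2 were called higher in each genotype. The aminopeptidase Lap3 rose in both (0.85 and 1.22), Nrdc in sgCtrL (0.13) and Blmh in Sin3Bsg1 (0.22). No gene of these 5 lists was called lower with IFNγ, where 14.5% (sgCtrL) and 12.3% (Sin3Bsg1) of all genes were. Each of the 10 inducible and loading genes rose by more than any gene of these lists.

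**Figure D5:**
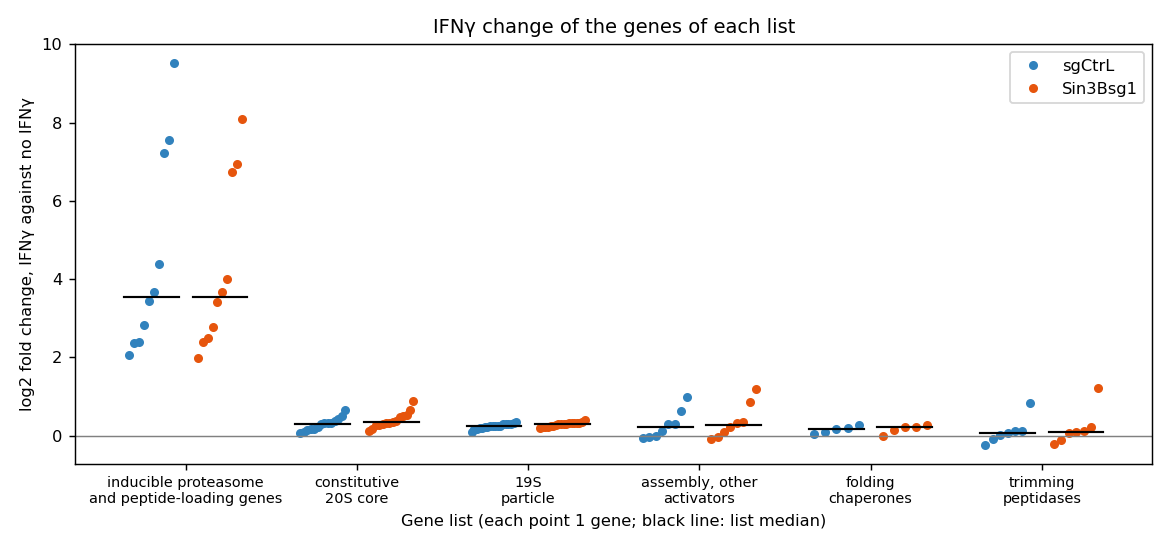
Log2 fold change with IFNγ against without it for each gene of 6 lists in sgCtrL and Sin3Bsg1; points are genes and black lines are list medians. The inducible and peptide-loading genes have a median of 3.55 in both genotypes, the constitutive 20S core 0.31 and 0.35, and the 19S particle 0.25 and 0.29.

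Between genotypes, genes of these lists were called in each comparison, with small differences. Without IFNγ, 4 of 14 core genes were called lower in Sin3Bsg1 (median -0.15) and none higher, where 9.33% of all genes were lower and 7.89% higher: Psma7 (-0.32), Psmb4 (-0.22), Psma2 (-0.21) and Psma4 (-0.16). Of 18 genes of the 19S particle, 7 were lower (median -0.10) and none higher, with Psmd2 (-0.21), Psmd12 (-0.19) and Psmd4 (-0.18) the largest. With IFNγ, 2 of 14 core and 3 of 18 19S genes were lower and none higher, where 7.90% of all genes were lower and 8.62% higher. In untreated cells 2 core and 5 19S genes were lower and 1 of each higher, Psma6 (0.10) and Psmd8 (0.11). Over all genes 16% were lower and 15.1% higher there. The count of lower core genes was thus no higher than that share, and the count of lower 19S genes was above it. The assembly factor Pomp was lower in Sin3Bsg1 untreated (-0.20) and without IFNγ (-0.34), and the activator Psme3 was higher untreated (0.10). No chaperone was called in the IFNγ experiment, and in untreated cells Hspa5 was higher (0.20) and Canx (-0.07) and Calr (-0.06) lower. Blmh was lower in all 3 comparisons (-0.28, -0.31 and -0.22), and Lap3 was higher with IFNγ (0.24). In untreated cells Npepps was also lower (-0.19), while Thop1 (0.16) and Lnpep (0.14) were higher.

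The class I genes served by this machinery and its regulators were read alongside. H2-K1 and H2-D1, the heavy chains, were higher in Sin3Bsg1 in untreated cells (0.57 and 0.58), without IFNγ (0.93 and 0.48) and with IFNγ (0.30 and 0.17), and they passed the threshold in the untreated experiment too. Of the regulators, Nlrc5, the class I transactivator, was lower without IFNγ (-0.92, adjusted p = 0.0347). With IFNγ Nlrc5 was not called lower, and no gene among these class I genes and regulators stood below -0.0066. Irf1 was called in none of the genotype comparisons (-0.13, 0.01 and 0.06).

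Over the 12 libraries of the IFNγ experiment, the 5 other genes whose pattern was most like the mean of the 10 genes, among 10493 with a mean of at least 5 CPM, were Gbp2 (Pearson r of log2 CPM 0.9997), Irgm1 (0.9994), Parp12 (0.9993), Dtx3l (0.9992) and Cxcl10 (0.999). All are known interferon-stimulated genes. The 12 points fall into a cluster without and a cluster with IFNγ, so these values describe that step. The 10 genes themselves had r of 0.9945 (Psme2) to 0.9994 (Psmb9) with their mean.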

How the data were processed

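RNA-seq libraries of KPC1199 cells were compared by guide and by IFNγ. The authors deposited estimated counts per gene, not normalized, in a table for each experiment, with gene lengths in bases and the mean of each group, which equalled the mean of the replicate columns and was not used. The submitters' processing notes name fastp, HISAT2, StringTie, DESeq2 and mm39, whereas the paper's methods name HISAT2 on mm9 and featureCounts. Versions, annotation and strand setting are not given in the sources used here. Control columns are named for lacZ and were taken as sgCtrL, since each table holds that guide and Sin3Bsg1 only. In the untreated table, 324 loci without a gene (0.615 to 0.677% of counts) were left out.

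Counts were rounded and tested with edgeR 4.0.16 in R 4.3.3 (TMM, filterByExpr, glmQLFit, glmQLFTest, two-sided, Benjamini-Hochberg over all genes tested, threshold 0.05). The 4 untreated libraries and the 12 of the IFNγ experiment were fitted apart, the latter with a mean per group and an interaction contrast. All 10 genes passed the filter in both. Psmb9 had at most 13 counts in any library of the IFNγ experiment without IFNγ. Standard errors are the log2 fold change over the square root of F. The biological coefficient of variation was 2.84% and 6.78%. CPM used TMM library sizes, TPM the deposited lengths. Counting intervals are exact binomial, at 95%, and cover counting error only. Likeness used log2(CPM + 0.5). The scripts were tested on simulated counts. Alternatives were DESeq2 1.42.0, RLE size factors, other filters, a replicate block, leaving out each library, fits of only the groups compared, and CPM in place of TPM, and, chosen after seeing the data, Psme2 and Psme2b added together. Named were the 10 genes, Sin3b, the constitutive counterparts and, of each list, up to 3 genes with the largest change past the threshold, any that passed alone or against its list, and the 5 most alike genes. The genes and lists were chosen with earlier results of these data known. Results that need certain genes are not reported here.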

Additional observations from a re-analysis of the deposited data

Results flagged for a closer look

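Tapbp differed in direction between the experiments: both Sin3Bsg1 libraries lay below both sgCtrL libraries in untreated cells (-0.11), while all 3 lay above all 3 without IFNγ (0.12). The difference between the experiments was not tested, and without IFNγ the value missed the threshold. The IFNγ rise of the class I heavy chain H2-K1 was smaller in Sin3Bsg1 by the interaction test (-0.63, adjusted p = 0.00931, edgeR), and that of the aminopeptidase Lap3 was larger (0.38, adjusted p = 0.0458). Neither is among the 10 genes. Groups of 2 and 3 libraries are too small for the test of single values far from their group.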

How the results depend on the processing

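The IFNγ rise of all 10 genes passed the threshold in every alternative in both genotypes, with 9 genes counted where at least 10 counts were required in every library, because Psmb9 was then not tested. Of 980 gene values under alternatives, 889 kept direction and side of the threshold, 33 passed it anew, 29 lost it and 29 changed sign. DESeq2 and no filter each gave 6 calls without IFNγ and 4 with it. Without IFNγ, 3 to 7 genes were called higher in Sin3Bsg1 when a library was left out (3 without any one sgCtrL library of that group or without its Sin3Bsg1 replicate 2, 7 without sgCtrL with IFNγ replicate 1). With IFNγ it was 1 to 6. In untreated cells 0 were called higher with any one library left out, with DESeq2 or with no filter on low counts, and 0 to 1 lower without a library. For the interaction, 2 genes were called lower with DESeq2, 2 with no filter, 1 with at least 10 counts and 0 to 1 without a library. Signs changed for values near 0. The interaction of Psmb10 was -0.01 with DESeq2, RLE size factors or at least 10 counts, and that of Psme2 -0.01 with DESeq2 or RLE, -0.00096 with no filter and -0.02 with at least 10 counts. Leaving out a library gave, in untreated cells, -0.31 to 0.04 for Tap2, -0.03 to 0.15 for Tapbpl, -0.01 to 0.13 for Psmb9 and -0.09 to 0.00092 for Psme1. With IFNγ it gave -0.02 to 0.11 for Tap1, -0.01 to 0.23 for Tapbp and -0.03 to 0.02 for Erap1, and for the interaction -0.15 to 0.10 for Tapbp, -0.08 to 0.04 for Tapbpl, -0.06 to 0.07 for Psmb10 and -0.09 to 0.07 for Psme2. The cause of these changes was not tested. Where a library is left out of a pair, the lone one is assumed to vary like the other group. In CPM in place of TPM the ratio of inducible to constitutive subunits was 0.0546 (sgCtrL) and 0.0467 (Sin3Bsg1) untreated, 0.0521 and 0.0651 without IFNγ, and 1.51 and 1.83 with it. Adding Psme2b to Psme2 left Psme2 called untreated (0.16) and with IFNγ (0.28). With only the 6 libraries compared in the fit, the calls were Tap2 and Psmb8 with IFNγ, and Tap1, Tap2, Tapbp, Psme1 and Psme2 without it.

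Whether replicate numbers pair the libraries is not settled by these data, since groups of 3 are small for it. Deviations of same-numbered libraries correlated by -0.023 to -0.009 between genotypes without IFNγ and by -0.0094 to 0.146 with it. Between libraries without and with IFNγ they correlated by 0.0119 to 0.0825 in sgCtrL and by -0.0195 to 0.0233 in Sin3Bsg1. With a replicate block 6 genes were called higher without IFNγ (Psme2 added, adjusted p = 0.0117), 3 with IFNγ, 1 higher and 1 lower untreated, 10 with IFNγ in each genotype and 0 for the interaction. Few counts limit the fold changes of Psmb9 (1 to 13 counts a library without IFNγ) and, with wide counting intervals too, of Tap1 (genotype ratio without IFNγ 1.78, 1.44 to 2.21) and Psmb8 (1.41, 1.13 to 1.78).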
